A study of Mus musculus with 8 samples.

Results

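The 10 genes described here are members of the AP-1 (activator protein 1) transcription factor family and other immediate-early genes, taken by name from the 33027 genes measured in single cells of the mouse lung. They are Fos, Fosb, Fosl2, Jun, Junb, Jund, Atf3, Egr1, Ier2 and Ier3, and all 10 were found by symbol. The lungs came from 8 C57BL/6 mice of the Sftpc-CreERT2-mTmG line, bred so that after tamoxifen the cells that express Sftpc, the surfactant protein C gene of alveolar type 2 (AT2) cells, turn from red to green fluorescence. All 8 mice received tamoxifen at 8 to 10 weeks of age, and 2 weeks later littermates began exposure either to cigarette smoke (CS, 4 mice: C2, C5, D2 and D5) or to room air (RA, 4 mice: F1, F3, M1 and M3) for 10 months. Lungs were taken 1 day after the last exposure, digested with collagenase and elastase at 37 °C for 45 min, and reassembled to 10% CD45-positive (blood lineage) and 90% CD45-negative cells, so that shares of cell types do not reflect the lung.

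AP-1 is a dimer of basic leucine zipper proteins. FOS proteins bind DNA only with a partner, usually a JUN protein, whereas JUN proteins can also pair with each other and with ATF3. Immediate-early genes are transcribed within minutes of a stimulus from factors already in the cell, without new protein synthesis, and their transcripts are short-lived. The same genes are known to be induced in many tissues while cells are being dissociated with enzymes at body temperature.

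The stretches of DNA just before the transcript starts are shown for the 5 AP-1 members whose window held one of 2 searched motifs of the cyclic AMP response element (CRE) type, the class of site through which several of these genes are known to be switched on. The motifs were TGACG and TGACNTCA, searched on both strands, and TATAAA was marked in addition. TGACG is also part of the form of TGACNTCA with G in the open position. Each line gives the 120 bases before the RefSeq transcript start on the strand of the gene (build GRCm38.p6), 5′ to 3′, with matched letters in capitals.
Fos (chr12:85473770-85473889, + strand): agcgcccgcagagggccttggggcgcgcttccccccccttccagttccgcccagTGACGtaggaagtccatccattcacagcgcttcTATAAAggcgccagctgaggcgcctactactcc
Fosb (chr7:19310046-19310165, - strand): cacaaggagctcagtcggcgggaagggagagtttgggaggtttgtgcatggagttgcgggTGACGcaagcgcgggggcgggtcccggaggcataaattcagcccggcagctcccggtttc
Jun (chr4:95052223-95052342, - strand): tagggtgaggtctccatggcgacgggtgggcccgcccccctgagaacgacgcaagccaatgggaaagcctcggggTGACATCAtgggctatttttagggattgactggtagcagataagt
Junb (chr8:84978749-84978868, - strand): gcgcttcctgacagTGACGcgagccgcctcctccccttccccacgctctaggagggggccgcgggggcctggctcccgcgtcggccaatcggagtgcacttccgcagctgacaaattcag
Atf3 (chr1:191183334-191183453, - strand): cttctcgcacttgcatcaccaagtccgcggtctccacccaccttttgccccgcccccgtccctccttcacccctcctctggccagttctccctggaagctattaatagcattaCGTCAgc

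A promoter was available for 8 of the 10 members. Within these 120 bases, TGACG was found for 4 of the 8 (Fos, Fosb, Junb and, on the opposite strand, Atf3), against 11.9% of 27025 promoters of all genes. TGACNTCA was found for Jun, against 5.19% of all promoters, and TATAAA for Fos, against 6.76%. The windows follow the RefSeq starts, which need not be the start of the transcript in these cells: that of Jund ends upstream of the gene start in the GENCODE annotation (chromosome 8, position 70698949), and those of Fosl2 and Atf3 lie within the gene. A match describes letters and does not show that a factor binds.

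The unit of every level below is transcripts per 10,000 transcripts of a cell, averaged over all cells that a mouse had of a type. Cell types are those named by the authors, and 22 types with at least 20 cells in at least 3 mice of each group were compared. In 19 of 20 types with a marker list, at least 2 of 3 markers were highest in the type that bears the name, and 56 of 60 markers were in all. The cells labelled mast held Cpa3 at 6.87 ± 1.43, Mcpt8 at 6.57 ± 1.57, and no Mcpt4, and Kit, the mast cell growth factor receptor, only at 0.113 ± 0.0552 (SD, n = 7 mice), so they are called by their label only. After removal of cells labelled as multiplets or cell cycle, 20330 CS and 19744 RA cells remained, 2553 to 6371 per mouse, with a median of 4254 to 6473 unique molecular identifiers (UMIs) per cell. The labels give C2, C5, M1 and M3 as male and D2, D5, F1 and F3 as female. Sex-linked transcripts went against the labelled sex in all 4 CS libraries and in no RA library. Xist was high in C2 and C5, and Ddx3y was found in D2 and D5. By label and by these transcripts, each group thus held both sexes in equal number. A barcode that also occurs in another library was carried by 394 cells.

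Across cell types most members were highest in fibroblasts, venous endothelial cells or the cells labelled mast, and Fos, Fosb, Jun, Atf3, Egr1 and Ier3 were lowest or next to lowest in lymphocytes. Because the authors clustered the cells on genes that can include these members, the order of levels is a description without a test. Fos was highest in peribronchial fibroblasts (31.1 ± 11.5, SD, n = 6 mice), followed by alveolar fibroblasts (22.8 ± 5.0, n = 8) and ciliated cells (22.2 ± 6.8, n = 8), and lowest in B cells (0.856), a 36.3-fold range. Fosb followed the fibroblasts, at 13.7 in alveolar, 11.6 in peribronchial and 11.6 in adventitial fibroblasts. Fosl2, another member of the FOS family, had a different order, with neutrophil granulocytes first (7.75), then NK and cytotoxic T cells (4.64) and T cells (4.24), and aerocytes last (0.205).

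Among the JUN genes, Jun was highest in venous endothelial cells (21.2 ± 3.8, n = 8), capillary endothelial cells of the general type (gCap cells, 20.9 ± 4.8) and alveolar fibroblasts (19.9 ± 6.6), and stood at 5.01 or less in all 7 other blood cell types besides the cells labelled mast (16.2). T cells were the last but one for Jun (1.22) but the sixth for Junb (21.4 ± 4.4). Junb was highest in peribronchial fibroblasts (45.4), cells labelled mast (45.2) and neutrophil granulocytes (35.7). Jund, which is known to be expressed also in resting cells, had the narrowest range of the 10 members, 9.65-fold between the cells labelled mast (32.0 ± 8.0) and club cells (3.31).

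Atf3, a stress-induced partner of JUN proteins, was highest in venous endothelial cells (13.5 ± 6.9, n = 8) and ciliated cells (10.0 ± 3.6). Egr1, a zinc-finger transcription factor induced by growth factors, was highest in peribronchial fibroblasts (37.2 ± 8.5, n = 6), then adventitial (23.3) and alveolar fibroblasts (20.2), and was at or under 0.971 in monocytes, T, NK and B cells. Ier2, a small nuclear protein gene, ranged from 9.19 in peribronchial fibroblasts to 0.240 in alveolar type 1 (AT1) cells. Ier3, which encodes a short-lived protein linked to cell survival, had the widest range, from 82.1 ± 8.8 in the cells labelled mast (n = 7) and 31.6 ± 9.9 in venous endothelial cells to 0.324 in NK and cytotoxic T cells, with AT1 cells at 14.1, the fifth of the 22 types. Neighbours in these orders mostly did not differ beyond their spread: of the 21 steps between neighbouring types, at most 2 had mean ± SD ranges that did not overlap, for any member.

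**Figure D1:**
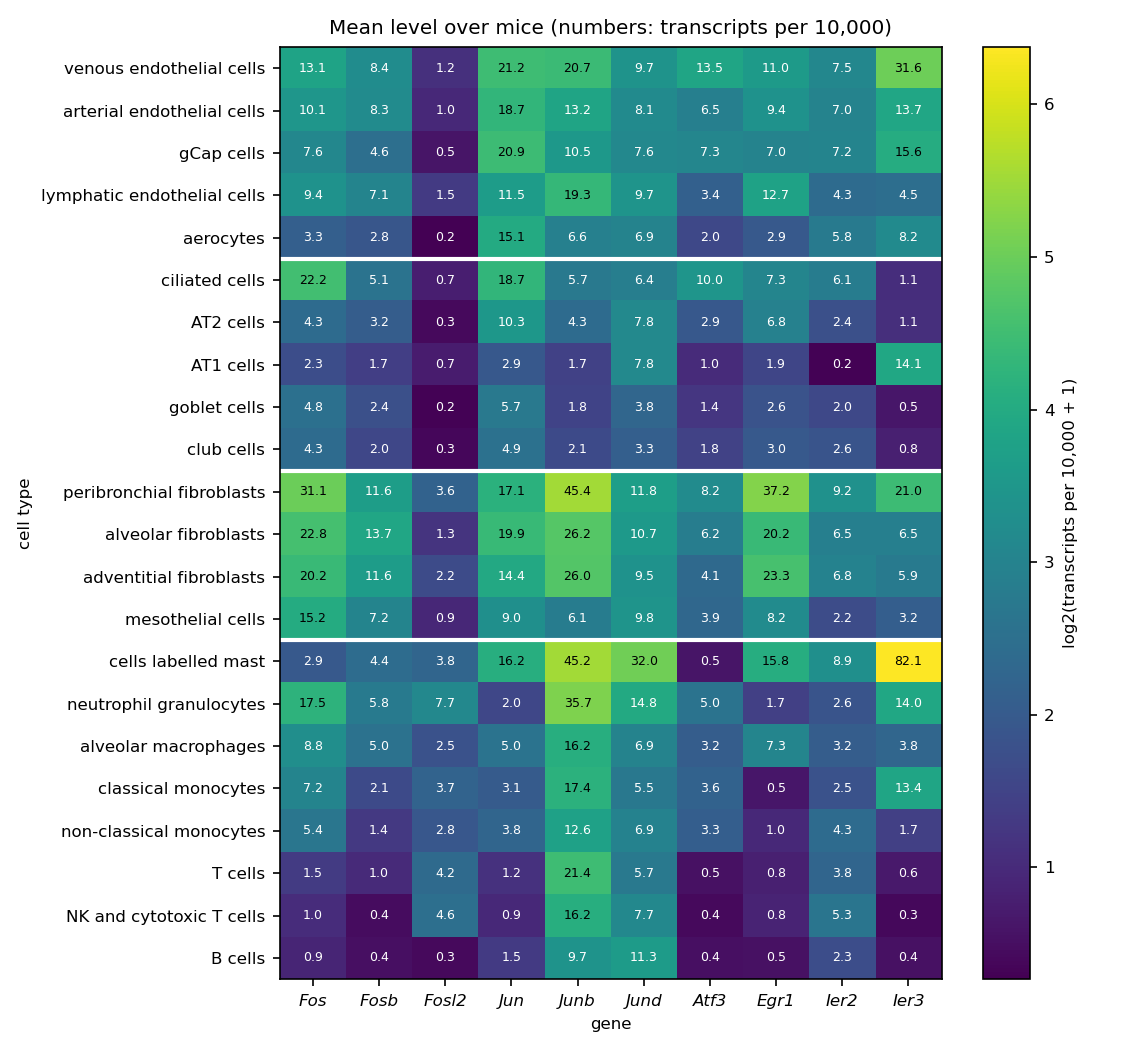
Mean level of each member (columns) in each cell type (rows, grouped by compartment and separated by white lines), as transcripts per 10,000 averaged over mice. Colours show log2 of the level plus 1, and the printed numbers are the levels themselves, from 82.1 for Ier3 in the cells labelled mast down to 0.2 for Fosl2 in aerocytes.

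The question of the exposure was then asked for each member in each type. The difference between CS and RA mice was tested with limma on log2(mean + 1), one value per mouse, over all genes detected in 10% or more of a type's cells in the CS or the RA group. P-values were adjusted by Benjamini-Hochberg over all genes of the type, with a threshold of 0.05. Of 220 member and type pairs, 218 passed the filter on low values (Atf3 in NK and cytotoxic T cells and Ier3 in B cells did not). In 9 of them the member was lower in CS mice and in 0 it was higher. The 9 are 4.13% of the member tests, against 0.518% of 172262 tests of all genes called lower and 0.712% called higher. At an unadjusted p under 0.05, 59 member tests were lower and 6 higher, as were 6.3% and 8.92% of all gene tests. The estimate was negative in 149 of 218 member tests, where 45.8% of all gene tests were negative, and the median difference of the members was -0.14 on the log2 scale. The member tests share the same mice, and most members vary together over mice. Their counts are therefore not counts of separate tests. The CS values lay wholly below the RA values in 29 pairs (13.3%, against 4.67% of all gene tests) and wholly above them in 1, Fosl2 in non-classical monocytes (6.01% of all gene tests), a type with 3 RA mice. In the 17 types with 4 mice in each group there were 25 such pairs below of 169 (14.8%, against 4.46% of all gene tests) and 0 above, and the other 4 were in peribronchial fibroblasts with 3 mice in each group, where values fail to overlap more easily.

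The 9 calls fell in 4 cell types: 5 in gCap cells, 2 in ciliated cells, 1 in adventitial fibroblasts and 1 in alveolar macrophages. The count changed when single mice were left out and when the lane given in the labels was taken as a block. Each lane held 1 CS and 1 RA mouse, and with the lane as a block 2 member tests were called, Egr1 in alveolar macrophages and, not among the 9, Fos in peribronchial fibroblasts (-0.90 on the log2 scale, adjusted p = 0.0494), where C2 (13 cells) and M3 (9 cells) fell below the minimum, so that only 2 lanes held both groups. All 9 were lower in CS in 4 of 4 lanes. Leaving out one mouse gave 2 calls in this direction without C2, 3 without D2, 1 without D5, 3 without F3 and between 6 and 10 without any of the other 4, not all of them among the 9. Over all alternatives, 14 further pairs were called in at least 1. Shares of all genes called are given only for the fit with all mice and no block. Every one of the 9 differences kept its negative sign in all of these fits. With all 8 mice the lane block leaves an estimate as it is, so it could not turn the sign of any of the 9. Where the groups do not overlap, neither the lane pairs nor a left-out mouse could turn the sign. That was so for all of the 9 but Fos in ciliated cells.

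**Figure D2:**
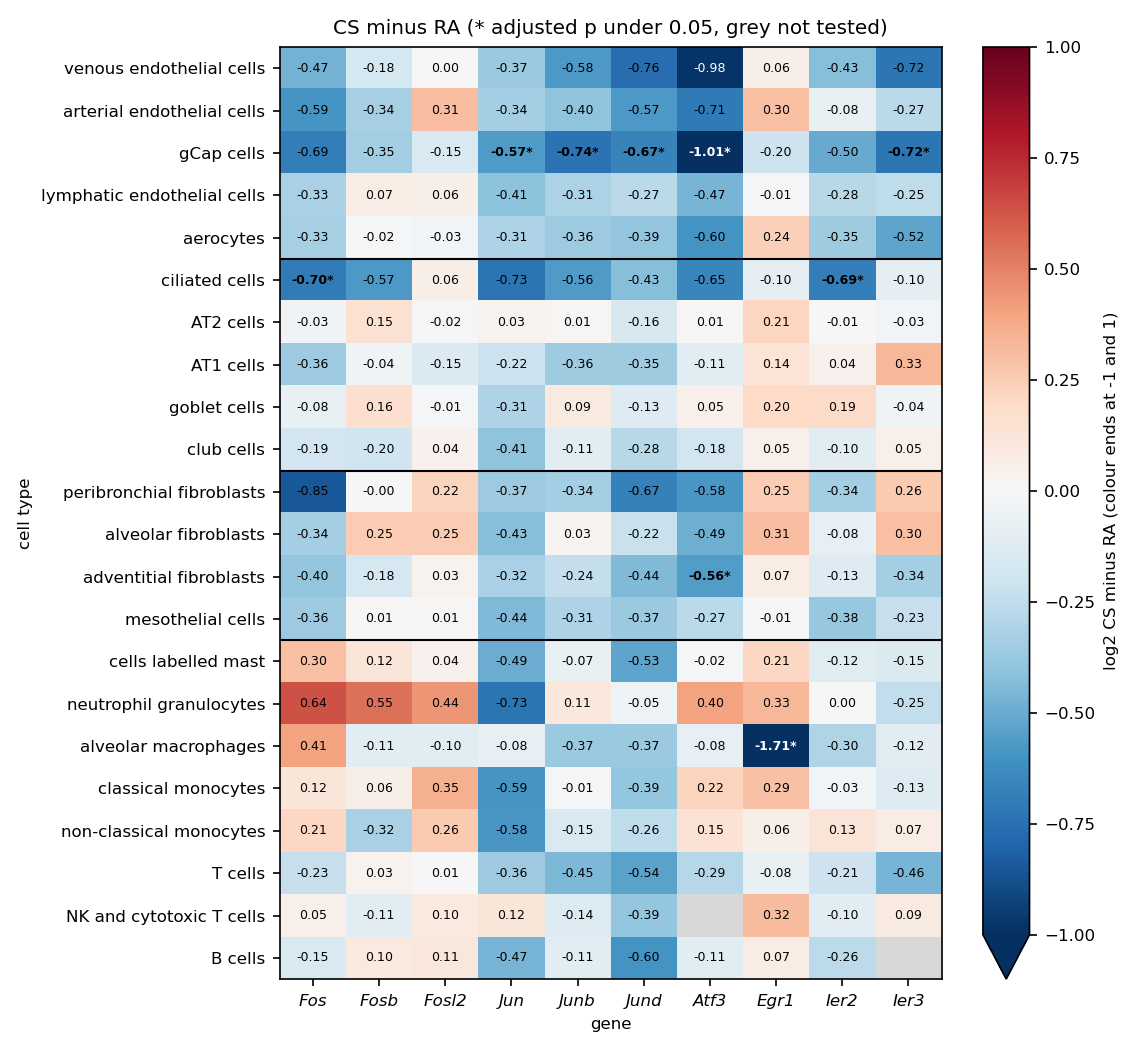
Difference between CS and RA mice on the log2 scale for each member (columns) and cell type (rows, grouped by compartment). Blue is lower in CS and red is higher, an asterisk marks an adjusted p under 0.05 (limma), and grey pairs were not tested. Jund is negative in 22 of 22 types and the values of Egr1 in alveolar macrophages (-1.71) and Atf3 in gCap cells (-1.01) lie beyond the colour scale.

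By gene, the difference had one direction most often for Jund and Jun. Jund was negative in 22 of 22 types, with 13 at an unadjusted p under 0.05, 7 without overlap between groups and 1 called. It stayed negative in 22 of 22 types under quantile normalization, median centring and summed counts. With the lane block it was negative in 22 of 22 as well, but where all 8 mice were measured the block cannot change an estimate. Of the 1704 genes tested in every type, 30 (1.76%) were negative in every type. Jun was negative in 20 of 22 types, the exceptions being AT2 cells (0.03) and NK and cytotoxic T cells (0.12). Of the same 1704 genes, 133 (7.81%) were negative in at least 20 types. Junb was negative in 18 of 22, Ier2 in 18 of 22, Fos in 16 of 22, Atf3 in 16 of 21 and Ier3 in 15 of 21. Fosb was split (12 of 22), whereas Fosl2 and Egr1 were positive in 16 of 22 types each, with 0 calls in that direction. Without C2, 1 member test was called higher, Fosl2 in alveolar fibroblasts (0.40, adjusted p = 0.0456).

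In gCap cells, the general capillary endothelial cells of the alveolus, all 10 members had a negative estimate and 5 were called: Jun, Junb, Jund, Atf3 and Ier3. There, 47.3% of 6556 genes had a negative estimate and 3.97% were called lower in CS. These 5 members were also those without overlap between groups, which 11% of genes were. Jun was at 18.5, 18.4, 16.8 and 13.2 in CS mice C2, C5, D2 and D5 and at 25.1, 25.1, 24.0 and 26.0 in RA mice F1, F3, M1 and M3. The RA mice thus lay close together and all above the CS mice, with a difference of -0.57 ± 0.12 (log2, SE, adjusted p = 0.0296). Jund was at 6.96, 5.26, 6.27 and 4.26 in CS and at 11.5, 10.4, 7.76 and 8.65 in RA mice, without overlap and with a difference of -0.67 ± 0.16 (adjusted p = 0.0343).

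Junb was at 8.71, 8.18, 8.03 and 5.33 in CS and at 17.02, 15.2, 10.4 and 10.8 in RA gCap cells, a difference of -0.74 ± 0.19 (adjusted p = 0.0404). Here RA mice F1 and F3 were high and M1 and M3 stood nearer to the CS mice. Ier3 was at 9.01, 11.9, 12.9 and 11.6 in CS and at 26.6, 18.5, 14.1 and 19.7 in RA mice (-0.72 ± 0.18, adjusted p = 0.0392). Atf3 had the largest fold of the 5, with 3.59, 5.53, 4.30 and 3.75 in CS against 18.6, 8.63, 7.51 and 6.79 in RA mice, or 4.30 ± 0.879 against 10.4 ± 5.54 (SD, n = 4 mice each), a difference of -1.01 ± 0.26 (adjusted p = 0.0422). RA mouse F1 stood apart from the other 3, and without it the difference was -0.71 with an adjusted p of 0.0184. The exact two-sided permutation test over mice gave 0.0286 for each of the 5, the smallest value that 4 mice in each group can reach.

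None of the 5 calls in gCap cells held in every fit. With the lane as a block the adjusted p lay between 0.0646 and 0.0812, with the same estimates. The SE with the block was smaller for Jund (0.11) and Junb (0.14), 0.26 for Atf3, and larger for Jun (0.14) and Ier3 (0.21). Jun lost the call without C2, D2, D5 or F3 (adjusted p from 0.0716 to 0.0863), Atf3 without the same 4 mice (0.0808 to 0.120), Jund without these or C5 (0.0557 to 0.101), Junb without these, C5 or F1 (0.0531 to 0.107), and Ier3 without C2, C5, D2, D5, F3 or M3 (0.0556 to 0.107). The 5 members that were not called had estimates from -0.69 (Fos, adjusted p = 0.0961) to -0.15 (Fosl2), and Egr1 was at 6.54 in CS and 7.43 in RA mice.

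**Figure D3:**
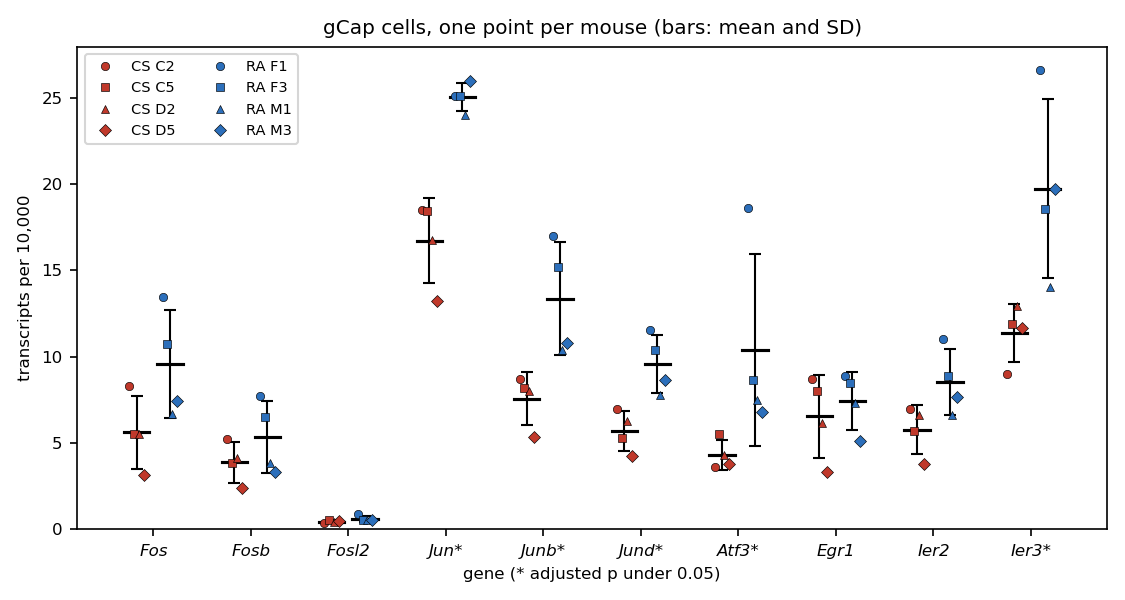
Level of each member in gCap cells as transcripts per 10,000, one point per mouse (CS red, RA blue), with the mean as a line and the SD as an error bar. The CS and RA points do not overlap for Jun, Junb, Jund, Atf3 and Ier3, and RA mouse F1 (circle) is the highest point for Atf3 at 18.6.

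In ciliated cells, the epithelial cells that move mucus, 9 of 10 members had a negative estimate and Fos and Ier2 were called. Of 11077 genes, 44.5% had a negative estimate and 1.91% were called lower. Ier2 was at 3.68, 5.52, 4.46 and 4.13 in CS and at 9.55, 6.61, 7.34 and 7.70 in RA mice, without overlap (-0.69 ± 0.12, adjusted p = 0.0159), and the call was lost without D5 (adjusted p = 0.0581) and with the lane block (0.0549). Fos was at 12.3, 23.4, 15.2 and 16.7 in CS and at 31.2, 23.4, 27.0 and 28.5 in RA mice (-0.70 ± 0.16, adjusted p = 0.0399). CS mouse C5 and RA mouse F3 had nearly the same value, so that the groups overlapped, and the call held without C5 but was lost without any one of the other 7 mice (adjusted p from 0.0523 to 0.0970) and with the lane block (0.0761). Jun had the largest estimate (-0.73), but its CS values ran from 8.76 to 22.9, the highest in C5, and its RA values from 18.8 to 30.5 (adjusted p = 0.0997). Without C5, 7 members were called lower in ciliated cells in place of 2, namely Fos, Ier2, Jun (-0.98, adjusted p = 0.0174), Fosb (-0.85, 0.0127), Atf3, Junb and Jund. The 1.91% of genes belongs to the fit with C5, so this rise cannot be set against one over all genes.

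In adventitial fibroblasts, which lie around large vessels and airways, Atf3 was called, where 1.19% of 9406 genes were called lower. It was at 2.80, 3.51, 3.49 and 2.74 in CS and at 4.58, 4.84, 4.82 and 6.16 in RA mice, without overlap (-0.56 ± 0.12, adjusted p = 0.0360, exact permutation p = 0.0286). The call was lost without C2, C5, D5, F1, F3 or M3 (adjusted p from 0.0551 to 0.0804) and with the lane block (0.105). Jund followed with 8.89, 7.48, 8.63 and 6.56 against 10.6, 11.2, 10.4 and 11.9, also without overlap, but did not pass the threshold (-0.44 ± 0.12, adjusted p = 0.0717). It passed with a filter at 25% of cells (0.0449) and without a variance trend (0.0310).

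Alveolar macrophages, the resident phagocytes of the air space, differed in Egr1. Its level was 3.42, 2.87, 3.55 and 1.83 in CS mice and 12.0, 10.8, 10.5 and 13.5 in RA mice, or 2.92 ± 0.781 against 11.7 ± 1.34 (SD, n = 4 mice each), 4.00-fold lower in CS. The groups were far apart compared with their spread (-1.71 ± 0.17 on the log2 scale, adjusted p = 3.38e-05, exact permutation p = 0.0286). In these cells 0.291% of 7554 genes were called lower. Egr1 was called under each alternative that could be fitted, with estimates from -2.0 to -1.53 and adjusted p-values from 1.06e-05 to 0.00780, the lane block included (8.06e-05).

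The other 9 members were not called in alveolar macrophages, and their estimates lay between -0.37 (Junb and Jund) and 0.41 (Fos, at 10.2 ± 3.21 in CS and 7.42 ± 2.08 in RA mice). Egr1 in the other 21 types differed by -0.20 (gCap cells) to 0.33 (neutrophil granulocytes), none of them called. The share of alveolar macrophages with an Egr1 transcript was 39.4% ± 7.99 in CS and 75.7% ± 8.80 in RA mice, and 24.9% ± 5.73 against 59.9% ± 7.44 when each cell was thinned to 2000 UMIs, which left out 22 CS and 6 RA cells. Values were rounded to whole numbers before thinning, whereas the unthinned share counts any value above 0. The unthinned and thinned shares thus differ by more than depth. In B cells, where Egr1 was lowest, thinned shares were 7.75% and 6.56%. The macrophage values rest on 178 CS and 240 RA cells, 31 to 112 per mouse, with median UMIs of 3252 to 9325 per cell in CS and 5082 to 9917 in RA mice. Markers of other cells were present in some of these libraries: the 3 AT2 markers summed to 0.147 to 18.4 in CS and 0.454 to 5.08 in RA mice, and the 3 endothelial markers to 2.32 to 3.56 and 0.830 to 2.46, with all 3 of each list higher on average in CS, as were all 3 club, B cell and erythrocyte markers. The summed levels of every list overlapped between groups. Mean mitochondrial percentages of the macrophages were 2.36, 2.33, 2.54 and 1.40 in CS and 1.42, 1.195, 1.35 and 1.47 in RA mice, so that 3 of the 4 CS mice lay above all RA mice and D5, which had the lowest Egr1, lay among them. The part of the markers and of the mitochondrial share in the Egr1 difference was not tested.

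**Figure D4:**
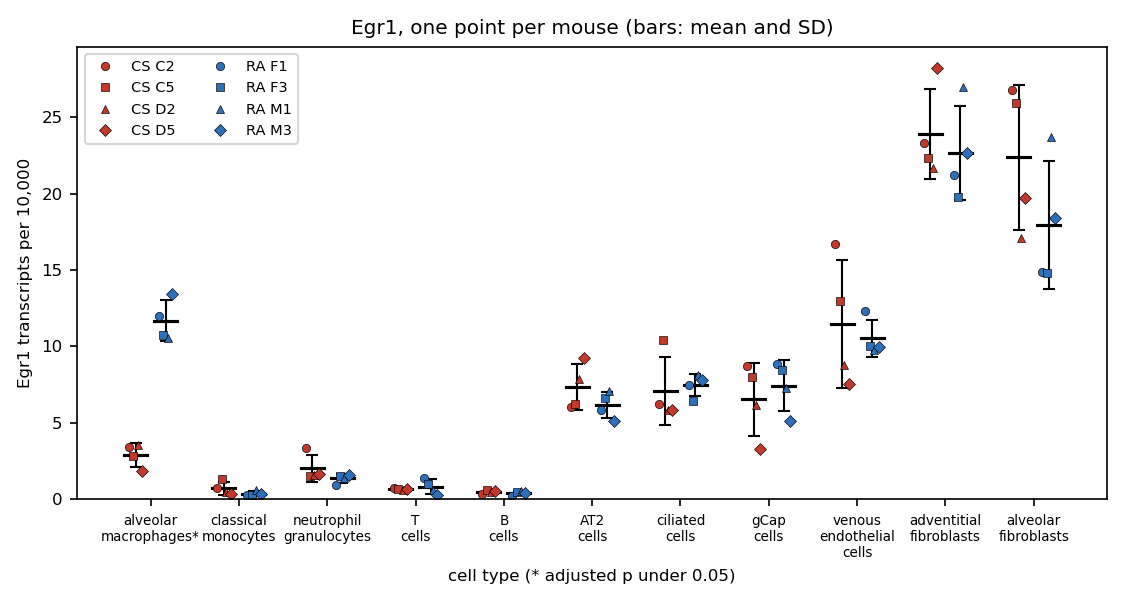
Egr1 as transcripts per 10,000 in 11 cell types, one point per mouse (CS red, RA blue), with the mean as a line and the SD as an error bar. In alveolar macrophages the 4 CS mice lie between 1.83 and 3.55 and the 4 RA mice between 10.5 and 13.5, whereas in the fibroblasts both groups lie at higher levels and overlap.

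Several pairs did not overlap between groups without passing the threshold. In venous endothelial cells, where 0.0649% of 7706 genes were called lower, Jund was at 5.76 to 7.71 in CS and 10.6 to 14.2 in RA mice (-0.76, adjusted p = 0.0842, and called with a filter at 25% of cells, 0.0432, or without a variance trend, 0.0426), Atf3 at 7.31 to 9.41 and 13.6 to 28.1 (-0.98, adjusted p = 0.0953), and Junb at 13.6 to 18.1 and 21.9 to 27.0 (-0.58, adjusted p = 0.138). With Jun, 4 of 10 members did not overlap there, against 3.54% of genes. In T cells, Jun, Junb and Jund did not overlap (limma adjusted p = 0.141 each). There 7.18% of genes did not overlap in this direction, and limma called 0 of 6364 genes lower, while 5 of 10 members were lower at an unadjusted p under 0.05, as were 10.5% of genes. In neutrophil granulocytes 7 of 10 members had a positive and 3 a negative estimate, where 44.3% of all genes were negative. Fos was at 27.7, 14.2, 23.5 and 18.8 in CS and 6.02, 15.7, 13.4 and 20.7 in RA mice (0.64 ± 0.29, adjusted p = 0.361), while Jun was at 0.922 to 1.27 in CS and 1.34 to 5.10 in RA mice (-0.73, adjusted p = 0.208). Ier3 was at 11.0 to 13.7 in CS and 14.4 to 16.5 in RA mice (-0.25, adjusted p = 0.438). Jun and Ier3 did not overlap, as 2.55% of genes did not. The neutrophils of RA mouse F1, lowest in Fos and highest in Jun, stood apart in the 3 alveolar macrophage markers, which summed to 89.1 there and to 0.108 to 1.82 in the other 7 mice. The 3 erythrocyte markers were all higher in CS, with sums of 28.0, 24.6, 7.63 and 1.46 in CS and 0.690, 1.48, 0.415 and 0.0857 in RA neutrophils. Ptprc (CD45), the pan-leukocyte marker, was higher in CS neutrophils without overlap (15.1 to 17.5 against 9.40 to 14.8). The part of these in the neutrophil values was not tested. Limma called 0 of 2819 genes lower in these cells, while 1 member was lower and 2 were higher at an unadjusted p under 0.05, as were 4.47% and 8.94% of genes.

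Averaging the log2 values of a mouse over the types of a compartment gave 3 members called lower in endothelial cells (3.4% of 5699 genes called lower), 1 in mesenchymal cells (4.35% of 8093), 1 in immune cells (0.233% of 2146) and 0 in epithelial cells (0.556% of 7552, with 1 of 10 members at an unadjusted p under 0.05, as were 20.5% of genes). In endothelial cells these were Atf3 (-0.75 ± 0.17, adjusted p = 0.0253), Jund (-0.53 ± 0.12, 0.0278) and Jun (-0.40 ± 0.10, 0.0384), all 3 without overlap between groups, as were 8.97% of genes. Atf3 was also called in the 2 fibroblast types that all 8 mice had (-0.52 ± 0.13, adjusted p = 0.0279), and Jun in the immune compartment (-0.45 ± 0.08, adjusted p = 0.0444), where Ier3 was not tested. The immune call was lost without any one of the 8 mice (adjusted p from 0.0700 to 0.114) and with the lane block (0.125). Of the 5 immune types averaged, B cells had all 3 AT2 markers higher in CS without overlap of the sums (1.38 to 2.93 against 0.220 to 1.10), and all 3 erythrocyte markers were higher on average in CS in T cells (sums of 2.29 to 21.4 and 0.268 to 11.3), classical monocytes, neutrophils and macrophages. In classical monocytes, as in neutrophils, RA mouse F1 stood apart in the alveolar macrophage markers (a sum of 239 against 6.73 to 31.5 in the other 7 mice). In alveolar macrophages themselves, mean levels were 29.3 for Ear2, 136 for Chil3 and 9.79 for Marco. The source of these transcripts in monocytes was not tested. The part of the AT2, erythrocyte and macrophage markers in the Jun difference was not tested. Among endothelial calls, all 3 were lost without C2, C5 or D5 (adjusted p from 0.0516 to 0.109), whereas with the lane block Atf3 (0.0262) and Jund (0.0322) held and Jun (0.0687) did not. Jun was lost also without D2, F3 or M3 and Jund without F3 or M3, at adjusted p-values within the same range, whereas without M1 6 members were called. The 3.4% of genes belongs to the fit with M1, so this rise cannot be set against one over all genes. The fibroblast call was lost without C2, D2, D5 or M3 (adjusted p from 0.0557 to 0.0710) and with the lane block (0.0646).

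The difference between compartments was tested for each member within mice. The smoke difference of Atf3 was less negative in epithelial than in endothelial cells, by 0.58 ± 0.10 on the log2 scale (adjusted p = 0.0238, with 0.655% of 5193 genes called in this direction), and more negative in fibroblasts than in immune cells, by -0.55 ± 0.10 (adjusted p = 0.0218, with 0.791% of 2022 genes). With the lane block the first held (adjusted p = 0.00796) and the second did not (0.0899). With a pseudocount of 0.1 neither was called. On the log2(mean + 1) scale equal folds give smaller differences where levels are low. The first was lost without C2, D2, D5, F3 or M3 (adjusted p from 0.0503 to 0.0738) and the second without C2, D2, D5, M1 or M3 (0.0531 to 0.116), while without F1 Atf3 did not pass the filter on low values in this comparison. Between endothelial and immune cells Atf3 differed by -0.78 ± 0.20 (adjusted p = 0.105), and no member passed the threshold there or between mesenchymal and endothelial cells, where 4 of 9 and 2 of 10 members had an unadjusted p under 0.05, against 14.6% and 13.2% of genes, and 0.576% of genes were called lower in the first and 0.24% higher in the second.

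The spread between mice was unevenly shared. Over the 169 member and type pairs measured in all 8 mice, RA mouse F1 was the highest of the 8 in 73 pairs and CS mouse D5 the lowest in 45. F1 was highest in 33 of 50 endothelial and 27 of 50 epithelial pairs, but in 1 of 20 mesenchymal and 12 of 49 immune pairs, where RA mouse M3 was highest in 7 and 13. D5 was lowest in 21 of 50 endothelial pairs. The library of D5 did not stand apart in depth but had the lowest mean mitochondrial percentage (1.14, against 1.31 to 1.70 in the others), whereas that of F1 had the most cells (6371) and the lowest median of UMIs per cell (4254). Within RA mice the median coefficient of variation over types was smallest for Jund (12.7%, against 18.5% in CS mice) and Junb (13.5% and 20.1%), and within CS mice for Fosl2 (16.9%), Ier3 and Ier2 (17.7% each). It was large in both groups, CS first, for Fos (29.3% and 32.6%), Fosb (30.5% and 34.9%) and, in RA mice, Atf3 (24.0% and 37.3%).

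**Figure D5:**
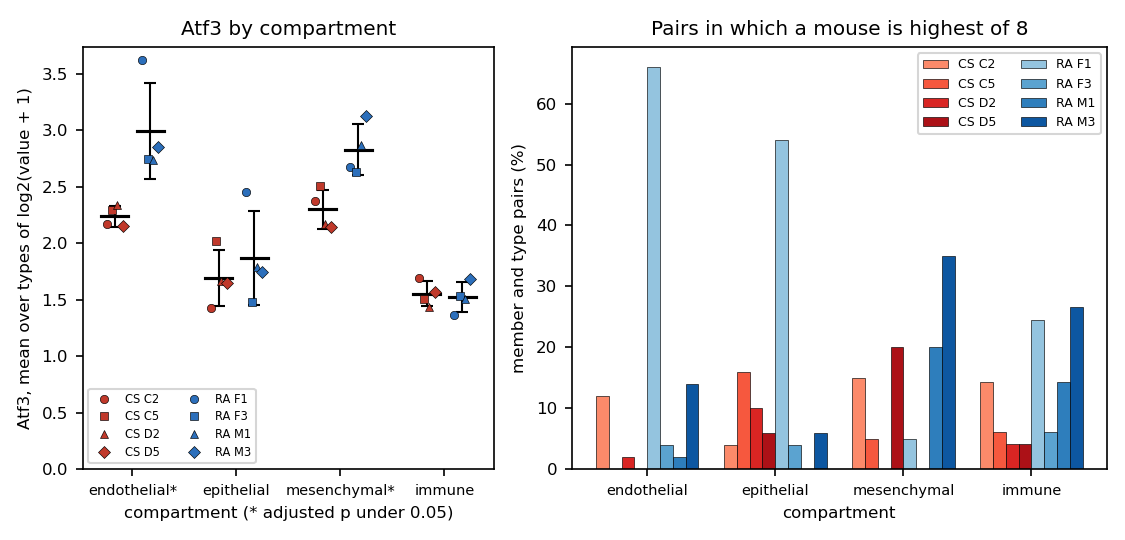
Left, Atf3 in each compartment as the mean over cell types of log2(transcripts per 10,000 + 1), one point per mouse, with the mean as a line and the SD as an error bar. Right, share of member and type pairs, in percent, in which each mouse has the highest value of the 8, for which RA mouse F1 stands highest in 33 of 50 endothelial and 27 of 50 epithelial pairs.

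Other genes of the pathway were followed from 4 lists. Over all genes and types, 0.518% of tests were called lower in CS and 0.712% higher. Of 33 further immediate-early and feedback genes, 32 were tested in some type, and 17 of 591 tests were called lower in CS and 0 higher, with a median of -0.07. In gCap cells these were 8 of 25 tested, where 3.97% of all genes were called lower. In AT1 cells 0.992% of all genes were called lower and 1.39% higher, and in aerocytes 0.989% lower. Those with the smallest adjusted p were Btg2, an anti-proliferative gene, in AT1 cells (1.73 ± 0.529 in CS and 4.61 ± 0.773 in RA mice, -1.05, adjusted p = 0.000758), Mcl1, a survival gene, in AT1 cells (2.33 ± 0.117 and 3.73 ± 0.0923, adjusted p = 0.00319), and Socs3, an inhibitor of cytokine signalling, in gCap cells (1.198 ± 0.218 and 2.46 ± 0.341, adjusted p = 0.0129). Cebpb, another leucine zipper factor, was lower in AT1 cells (-0.45, adjusted p = 0.0203), in ciliated cells (-0.43, adjusted p = 0.0212) and in gCap cells (-0.18, adjusted p = 0.0381). In AT1 cells the mean mitochondrial percentage was 2.13 to 3.16 in CS and 1.58 to 1.92 in RA mice, without overlap, and its part in the AT1 values was not tested. Of 12 other leucine zipper partners, 11 were tested in some type, and 2 of 149 tests were called, both of Jdp2, a partner of JUN proteins that was lower in gCap cells (-0.36, adjusted p = 0.0173) and aerocytes (-0.33, adjusted p = 0.0475).

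Upstream kinases and serum response factors, 15 genes, had 0 of 283 tests lower and 3 higher: Mapk14 (the p38 alpha kinase, 0.27, adjusted p = 0.0346) and Mrtfb (a coactivator of serum response factor, 0.38, adjusted p = 0.0422) in gCap cells, and Elk4 in ciliated cells (0.08, adjusted p = 0.0419), where 6.28% and 2.72% of all genes were called higher. The fourth list held 17 genes known from dissociation and heat shock responses. Of its 345 tests, 28 were lower and 2 higher in CS, as were 0.518% and 0.712% of all gene tests. The 2 were the metallothioneins Mt1 (2.94 ± 0.204 in CS and 0.112 ± 0.0541 in RA mice, adjusted p = 1.56e-10) and Mt2 in AT1 cells. Among those lower were Nfkbia, the NF-kappa-B inhibitor, in alveolar macrophages (6.77 ± 0.894 and 17.5 ± 3.63, -1.24, adjusted p = 0.00155), and the chaperones Hsp90ab1 (-0.89) and Hspa8 (-1.01) in AT1 cells.

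Some of the dissociation and heat shock genes were called lower in CS both in types where members were called and in types where none was. In gCap cells 8 of 15 were lower, all 15 had a negative estimate, and their summed level was 38.4 to 64.2 in CS and 71.2 to 117 in RA mice, without overlap. In alveolar macrophages, 2 of 16 were lower and the sums were 70.1 to 87.4 and 89.5 to 122. In ciliated cells 5 of 17 were lower and the sums overlapped (91.0 to 169 and 141 to 244), as they did in adventitial fibroblasts (1 of 17 lower, 65.3 to 117 and 99.9 to 128). Of all genes, 3.97% were called lower in gCap cells, 0.291% in alveolar macrophages, 1.91% in ciliated cells and 1.19% in adventitial fibroblasts. In aerocytes 6 of 15 genes of the list were lower (sums of 40.2 to 47.9 and 61.6 to 124) and in AT1 cells 4 of 17 (42.2 to 50.7 and 59.9 to 84.4), both without overlap of the sums, while limma called 0 of 10 members in either type, with 3 members lower at an unadjusted p under 0.05 in each, as were 10.9% of genes in aerocytes and 8.19% in AT1 cells. In AT1 cells 3 of 10 members did not overlap between groups, as 5.17% of genes did not, and calls came there for Jund without a variance trend (adjusted p = 0.0272) and with quantile normalization (0.0499), and for Junb with a filter at 25% of cells (0.0427) and with labelled sex as a term (0.0424). In aerocytes Ier3 was called without M1 (0.0444). In neutrophil granulocytes the list sums did not overlap either (70.8 to 112 in CS and 124 to 143 in RA mice). Nor did they in T cells (46.1 to 58.2 and 61.1 to 64.4). Limma called 0 genes of the list and 0 members in both types. Estimates were negative for 7 of 10 list genes and 3 of 10 members in neutrophils, and for 10 of 14 and 8 of 10 in T cells. Of all genes, 44.3% and 50.2% were negative. In gCap cells F1 had the highest sum, as it had the highest Atf3. Mean mitochondrial percentages in gCap cells were 0.709 to 1.52 in CS and 0.870 to 1.24 in RA mice, and median UMIs per cell 3482 to 4925 and 3024 to 5226. Of the markers of other cells, all 3 of the club, AT2, adventitial fibroblast and neutrophil lists were lower on average in CS gCap cells and all 3 of the erythrocyte list higher, and the sums of every list overlapped between groups (club markers 6.58 to 8.74 in CS and 7.93 to 17.9 in RA mice, AT2 markers 0.313 to 1.08 and 0.167 to 2.17). In ciliated cells all 3 AT2, club, B cell and erythrocyte markers were higher on average in CS and all 3 alveolar macrophage and neutrophil markers lower. In adventitial fibroblasts all 3 B cell markers were higher and all 3 AT2, alveolar macrophage and erythrocyte markers lower, the erythrocyte sums being 0.324, 0.200, 0.596 and 0.256 in CS and 10.2, 0.251, 9.98 and 17.4 in RA mice, highest in M3, which also had the highest Atf3. The sums of every list overlapped between groups in both types. The part of these markers in the member differences was not tested. Whether the time or conditions of digestion differed between mice is not in the labels, and what share of the member differences goes with this list was not tested.

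Genes outside the members with the most similar pattern were sought among 15351 genes. Over the 22 cell types, the mean standardized level of the members was followed closely by Nim1k (Pearson r = 0.87), Gm26887, Tex14, Maff, Cebpd, Ppp1r10 and Pdlim7 (0.82). Over 170 mouse and type values taken as deviations from the type mean, close genes were Btg2 (r = 0.73), Dusp1 (0.72), Klf4 (0.64), Sertad1, Mcl1, Ppp1r15a and Arl4a (0.59), and the members themselves ranged from 0.82 (Junb and Atf3) to 0.26 (Fosl2). These values come from the same 8 libraries and hold the difference between CS and RA mice, so that they are a description only. Among pairs of members, levels over the 22 types were most alike for Fosb and Egr1 (r = 0.90) and least for Fosl2 and Jun (-0.36).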

How the data were processed

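Single-cell RNA-seq libraries (10x Genomics Chromium, 3′ chemistry with UMIs) of right lungs of 4 CS and 4 RA mice were analysed. The authors aligned reads with STAR 2.7.3a and STARsolo to GRCm38.p6 (submitters' processing notes) and removed free RNA with SoupX, and the deposited matrix is described as normalized but holds estimated counts that are mostly not whole numbers (1.28% of values are whole within 1e-06), so that no count model was used. The deposited cell table gives the authors' cell types and the percent of mitochondrial transcripts, which was above 5% in 1628 cells. Cells labelled multiplets (1025) and cell cycle (7) were left out. Counts were scaled to 10,000 per cell and averaged over cells per mouse and type (at least 20 cells).

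The values log2(mean + 1) of genes detected in 10% or more of a type's cells in the CS or the RA group were tested with limma 3.58.1 (trend) in R 4.3.3, with a threshold of 0.05 after adjustment over all genes of a type. Differences understate the change of low genes on this scale. Python 3.11.15, numpy 2.4.6, pandas 2.3.3, scipy 1.17.1 and matplotlib 3.10.9 were used for the rest, and the limma step was tested on simulated data. Permutation tests over mice were exact and two-sided, over 70 assignments for 4 against 4. The mice are separate animals. For compartments, the log2 values of 5 epithelial, 5 endothelial, 2 mesenchymal and 5 immune types measured in all 8 mice were averaged. The alternatives were other averaging, pseudocount, filters, scaling, covariates and each mouse left out. Promoters came from RefSeq.

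The members and gene lists were chosen with earlier results of these data known, and the lists lend no independent support. Values are given for every called member pair, for at most 5 called genes of a list by adjusted p, and for the 8 non-members most like the members by each of 2 correlations, apart from a result that is not reported here. Pairs that were not called were named in addition, after their values had been seen. The labels give a lane for each mouse, shared by 1 CS and 1 RA mouse. Deviations from the group means of lane mates correlated at 0.02, -0.03, -0.27 and 0.39 in gCap cells and between -0.27 and 0.39 in 4 types. The lane block is given beside the results because the labels give the lane as shared. Per mouse, 2597 to 6561 deposited cells carried 31882952 to 55485617 UMIs, and 2553 to 6371 of the cells were kept. Precision is limited by the 4 mice of each group.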

Additional observations from a re-analysis of the deposited data

Results flagged for a closer look

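In gCap cells of RA mice, Atf3 in mouse F1 was at 18.6 transcripts per 10,000 and the other 3 RA mice at 6.79 to 8.63, a gap larger than Dixon's 95% critical value for 4 samples. In adventitial fibroblasts of RA mice, Atf3 in mouse M3 was at 6.16 and the other 3 at 4.58 to 4.84. Over all member and type pairs 22 of 377 groups of 4 mice exceeded it (5.84%), close to the 5% that chance gives, and 8 of the 22 were of mouse F1, of which 7 were high.

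The difference between CS and RA mice in Atf3 was itself called different between compartments in the main fit. It was more negative in fibroblasts than in immune cells by -0.55 on the log2 scale, and less negative in epithelial than in endothelial cells by 0.58, both by a limma test of the difference within mice. Neither was called with a pseudocount of 0.1, and each call was lost without any one of 5 mice. The first was also lost with the lane block (limma adjusted p = 0.0899). Atf3 was low in some types (0.440 in B cells and 1.04 in AT1 cells, but 10.0 in ciliated cells). There, equal folds give smaller differences of log2(mean + 1).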

How the results depend on the processing

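The count of 9 member tests called lower in CS became 4 with the mean of log values, 1 without a filter on low values, 2 with the lane as a replicate block (1 of them among the 9), and 1 to 10 with a mouse left out, where the count of higher calls was 0 to 1 and up to 5 calls (without C5) were not among the 9. Further calls also came with a filter at 25% of cells (12 in all, 9 of them the same) and without a variance trend (10, 7 of them the same). Shares of all genes called are given for the main fit only, so the counts of this paragraph cannot be set against them. The endothelial count of 3 became 1 with log values, 0 without a filter and 0 to 6 with a mouse left out. The mesenchymal count of 1 became 0 without a filter and with the lane block, 2 without a variance trend, and 0 to 1 with a mouse left out. The immune count of 1 became 0 with summed counts, log values, a pseudocount of 0.1, no filter, the lane block, or cells above 5% mitochondrial transcripts left out, 2 with labelled sex as a term, and 0 with any mouse left out. Since sex-linked transcripts went against the labelled sex in all 4 CS libraries, the sex term does not show an adjustment for sex. The fibroblast and immune difference in Atf3 (count 1) became 0 with a pseudocount of 0.1, no filter, a filter at 25% of cells and the lane block, and 0 to 1 with a mouse left out; with the 25% filter and without F1, Atf3 was not among the genes tested. The epithelial and endothelial difference (1) became 0 with a pseudocount of 0.1 or no filter, and 0 to 2 with a mouse left out. With cells thinned to 2000 UMIs, the share of alveolar macrophages with Egr1 was 24.9% in CS and 59.9% in RA mice and that of gCap cells with Atf3 35.1% and 58.7%. Without thinning the gCap shares were 46.1% and 67.0%. These count any value above 0, whereas values were rounded before thinning, which also left out 387 CS and 509 RA gCap cells.

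Over 16 single differences and 317 alternative fits, 195 stayed past the threshold, 122 did not, and 0 changed sign. Where the groups do not overlap, a left-out mouse cannot change the sign, and with all 8 mice the lane block cannot change the estimate. Egr1 in alveolar macrophages stayed past it in all 19 that could be run (with at least 50 cells per mouse it could not). Members were negative in 151 of 218 tests after median centring or quantile normalization, against 149. A pseudocount of 0.1 moved the median of all genes by up to 0.14 in a type on the log2 scale. For each lost call the cause was not tested. A left-out mouse leaves fewer degrees of freedom, yet without C5 or M1 the count of 9 lower calls became 10. The lane block also leaves fewer degrees of freedom. Few cells per mouse limit several types, among them peribronchial fibroblasts (23 to 64, 3 mice a group), goblet cells (from 23), lymphatic endothelial cells (from 24) and alveolar macrophages (31 to 112).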
